A study of Mus musculus with 12 samples.

Results

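The array used here measured exon regions (probe sets within exons) and exon junctions (probe sets that span the joint of a pair of exons). The results below concern the junctions of genes that passed a set level in mouse gut mucosa. A junction was included when the platform annotation gave it 1 gene symbol, when its gene had at least 3 junction rows and at least 3 exon region rows, and when the median of the exon regions of the gene averaged at least 5 log2 over the 12 arrays. These rules kept 54779 junctions of 4080 genes, out of 282044 junction rows and 725678 rows in all. Of the remaining junction rows, 33157 had no symbol, 7542 had several, and 180375 belonged to 14031 genes that had enough rows but lay below the level. Junctions were thus chosen by the measured gene level averaged over all 12 arrays, with no use of the labels. A gene that differs between the regions could pass through 1 of them, and 439 of the 4080 genes averaged under 5 log2 in ileum or in colon. The genes just inside the limit were Hspa12a, Guk1 and Dctn4 at 5.0005 to 5.0012, and those just outside were Pim1, Pus1 and Colq at 4.9999 to 4.9997.

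Laser-microdissected mucosa of untreated male mice on the C57BL6/J background, aged 4 to 6 weeks, was hybridised to 12 arrays, with 3 arrays in each of 4 groups. The groups were FSPCre-PPARB -/- ileum, PPARB flox/flox ileum, FSPCre-PPARB -/- colon and PPARB flox/flox colon, and they are called knockout and floxed below. The floxed littermates carry the loxP-flanked Ppard alleles without a stated Cre. FSP-Cre lines are driven by the promoter of S100a4, which is active mainly in fibroblasts and some immune cells. A single label field names tumours as the dissected material where the title, tissue field and design name mucosa, and the samples are described here as mucosa. Whether ileum and colon samples came from the same mice is not stated, and p-values measure the spread between these arrays, which may be technical in part. In bulk mucosa, a smaller share of cells that use a junction and less of it per cell cannot be told apart.

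The mature RNA of most mouse genes is cut from a longer transcript, and the spliceosome can join the exons in more than 1 way. Which exons are joined depends on RNA-binding regulators such as the ESRP, RBFOX, PTBP and SR proteins, and on the promoter from which the transcript starts. The joint of a pair of exons exists only in the spliced RNA, so a junction probe reports a particular splice while exon regions report the gene. The small intestine and the colon share a single-layered epithelium but differ in enterocyte, colonocyte and Paneth cell genes. To set splicing apart from gene level, a junction index was used: the log2 value of the junction row minus the median of the exon region rows of its gene in the same array. An index of 0 means a junction as bright as the middle exon region of its gene. The level of probes also differs by their sequence, so only differences of the index between groups are read.

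Member genes had 3 to 118 junctions with a median of 10, and 3 to 126 exon regions with a median of 15. Col7a1, the collagen of anchoring fibrils, had the most junctions. The gene level reached 10.9 log2 with a median of 5.53, and was highest for Reg3b, an antimicrobial lectin of the gut. The mean index of a junction had quartiles at -1.93, -0.45 and 0.80. Over the member index values, arrays of 1 group correlated at 0.893 to 0.932 across junctions, and ileum arrays correlated with colon arrays at 0.830 to 0.931. Markers of the regions moved with the labels. Of 8 small-intestinal enterocyte markers 7 were higher in ileum by gene level, among them Apoa1 by 4.90 and Sis by 3.42 log2. Of 7 colonocyte markers 4 were lower in ileum, among them Car1 by -7.18 log2. Epithelial markers averaged 7.88 to 9.22 log2 in ileum arrays and 7.69 to 8.56 in colon arrays.

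In genes whose level differed by at most 0.5 log2, the largest regional difference as measured lay in a junction of Mob2, a regulator of NDR protein kinases, whose colon values were not above background. RefSeq lists 4 starts for Mob2, of which the outermost and the innermost lie 35100 bases apart on chromosome 7. The 250 bases before each of these starts are shown because a junction can be specific to the transcripts of 1 start. The sequences are those of the minus strand of build GRCm38.p6, read 5′ to 3′, credited to RefSeq, with every CG dinucleotide in capitals. They cover chr7:142061060-142061309 for the outer start and chr7:142025960-142026209 for the inner start.
Mob2 outer start: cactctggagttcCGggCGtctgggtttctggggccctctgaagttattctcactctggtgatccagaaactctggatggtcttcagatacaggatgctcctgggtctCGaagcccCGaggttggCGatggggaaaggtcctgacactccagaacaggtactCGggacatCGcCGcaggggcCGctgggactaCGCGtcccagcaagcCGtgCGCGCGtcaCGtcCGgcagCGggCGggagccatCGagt
Mob2 inner start: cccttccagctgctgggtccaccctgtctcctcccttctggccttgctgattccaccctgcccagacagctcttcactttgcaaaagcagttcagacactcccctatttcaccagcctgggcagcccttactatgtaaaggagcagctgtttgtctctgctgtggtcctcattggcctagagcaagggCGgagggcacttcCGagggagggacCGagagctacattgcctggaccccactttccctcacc
The outer sequence held 20 CG dinucleotides and the inner one 3. Of 32851 listed promoters, 17.9% held at least 20 of them and 71% at least 3. No source used here ties the Mob2 junctions to a start. RefSeq promoters were matched for 17 of the 21 genes named below as the largest rises, the largest falls or reciprocal genes. Other genes named below were not looked up.

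Between ileum and colon, averaged over both genotypes, 467 of the 54779 member junctions changed in index, 194 higher and 273 lower in ileum, in 207 of the 4080 genes. This is 0.853% of the members, while over all 241324 junctions fitted 1037 were called, or 0.43%, with 0.174% higher and 0.256% lower. The test was limma with group means over all 12 arrays and Benjamini-Hochberg adjustment over all junctions fitted, called at an adjusted p under 0.05. The median index difference over all members was 0.01 log2. Among the members 830, or 1.52%, had 6 ileum and 6 colon values that did not overlap, where the share over all junctions fitted was 0.856%, and 399 of the 467 called junctions were among them. Of the 207 genes, 137 had a single called junction and 70 had several.

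Most called junctions lay in genes whose own level differed between the regions. In genes whose level differed by more than 0.5 log2, 383 of 6410 junctions were called, or 5.98%. In genes whose level differed by at most 0.5 log2, 84 of 48369 were called, or 0.174%. Of the 383 junctions, 274 moved opposite to their gene. In 200 of them the gene was higher in ileum by a median of 2.18 log2 while the index was lower by a median of -1.94. The rows themselves differed by a median of 0.16 log2 in these 200, from a median of 6.09 in ileum and 5.72 in colon, and 154 of the 200 moved by less than 1 log2. In these junctions a low index in ileum went with a higher gene and a row of about the same value. Because the gene level is subtracted, a row that stays at background takes the sign opposite to its gene. A background limit, chosen after the values were seen, was set for each array at the 95th percentile of its 5222 negative control rows, and ran from 5.86 to 6.11 log2. It lies above the median gene level of the members, 5.53 log2, and was applied to junction rows only. The gene level that is subtracted can thus itself be at background. Of the 467 called junctions, 123 were at or under the limit in all ileum and all colon arrays, 114 of them in genes that differed by more than 0.5 log2. In all, 246 were at or under it in all 6 arrays of the region with the lower index.

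**Figure D1:**
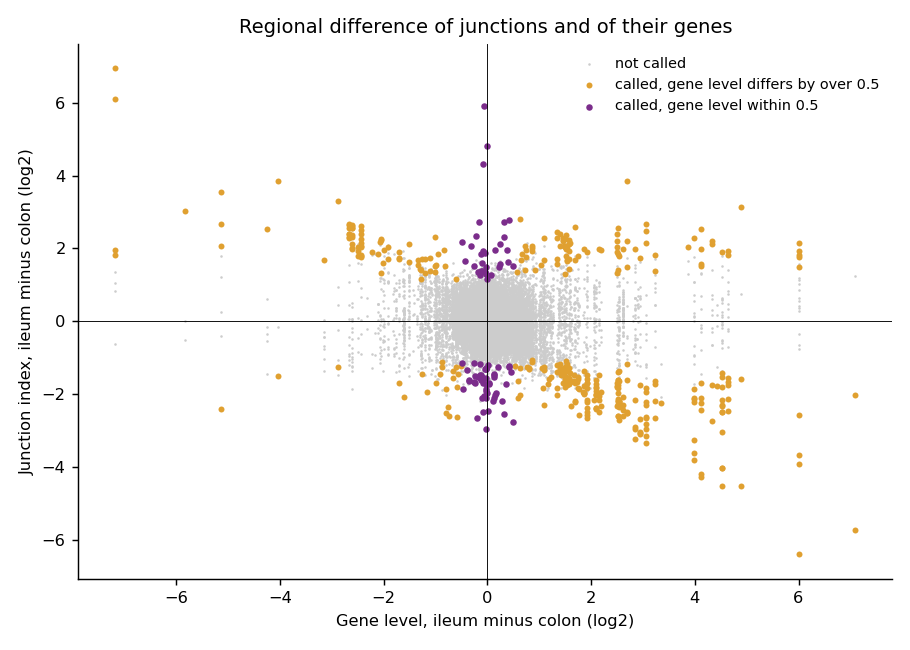
Junction index difference (vertical, log2, ileum minus colon) against the gene level difference (horizontal, log2, ileum minus colon) for all 54779 member junctions. Each point is 1 junction. The 84 called junctions of genes within 0.5 log2 form a narrow column at the middle, and the other 383 spread out to both sides, mostly with an index of opposite sign to the gene.

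The genes with the most called junctions, listed after their values were seen, were mostly genes higher in ileum. Xpnpep2, an aminopeptidase of the brush border, had 14 of 24 junctions called, 2 higher and 12 lower, with a gene level of 6.29 in ileum and 3.77 in colon. Apob, the backbone protein of chylomicrons, had 13 of 32 called, 1 higher and 12 lower, with a gene level of 8.04 in ileum and 3.52 in colon. Slc28a2, a nucleoside transporter, had 13 of 22 called, and Ggt1, which cleaves glutathione, had 12 of 28. Slc26a6, an anion exchanger, had 11 of 22 called, all lower in ileum. The peptidases Enpep and Anpep had 10 of 21 and 9 of 22 called. In Anpep the junction indices spanned -6.41 to 2.14 around a gene that was higher by 6.00 log2 in ileum. St6galnac6, a sialyltransferase, was the mirror case, with 10 of 16 junctions called, all higher, in a gene that differed by -2.43 log2. Across the range of gene differences, the share of called junctions was 31.5% in genes lower by more than 2 log2 in ileum, with 48 higher and 3 lower, and 30.2% in genes higher by more than 2 log2, with 39 higher and 116 lower. Of the 20 and 40 genes in these bins 10 and 24 averaged under 5 log2 in 1 region, and they held 30 of the 51 and 137 of the 155 called junctions, so the gene level subtracted there was itself low in 1 region.

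**Figure D2:**
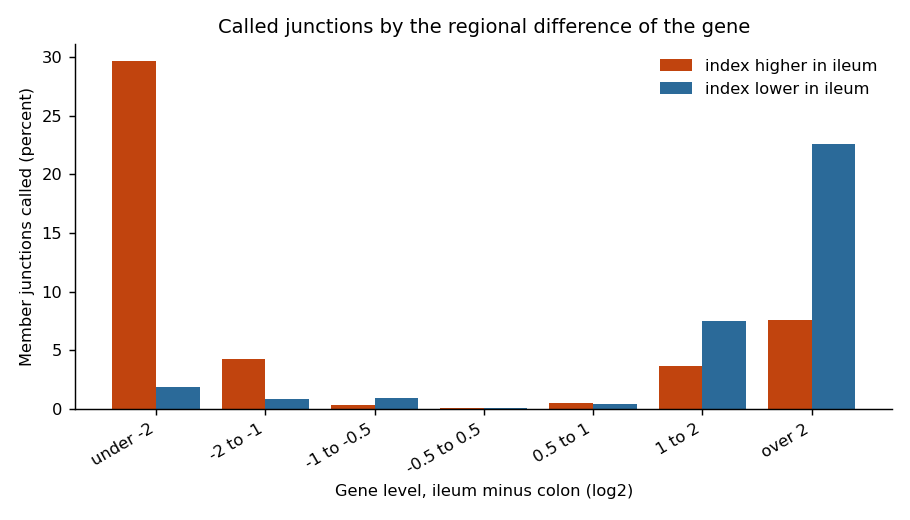
Share of member junctions called (vertical, percent) in bins of the gene level difference between ileum and colon (horizontal, log2), with a bar for junctions with a higher and one for those with a lower index in ileum. Called junctions make up 31.5% and 30.2% of the outermost bins and 0.174% of the middle bin.

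The 84 called junctions in genes whose measured level differed by at most 0.5 log2 were looked at for splicing or choice of start apart from the gene. A gene level at background would also differ little, so a small difference does not show that the gene was steady. After limits on row brightness (at least 5 log2 in the region with the higher index) and non-overlapping arrays, 72 of the 84 junctions, in 64 genes, remained, 24 higher and 48 lower in ileum. The 10 largest rises and the 10 largest falls among these, with 1 junction a gene, ran from 1.95 to 5.92 and from -2.06 to -2.97 log2. In all 20 the knockout and the floxed mice moved in the same direction, which the limit of non-overlapping arrays had fixed in advance. Each genotype alone called 13 of the 20, and 10 were called in both. In 18 of the 20 genes no other junction was called, and in 19 no exon region was called, so most of these differences rested on a single row of the gene. The background limit lies above the 5 log2 asked of the brighter region. Of the 10 rises, 9 had all 6 colon arrays at or under the limit, and of the 10 falls 3 had all 6 ileum arrays there. For these junctions the measured difference is no exact size, and a lower bound is given with the dimmer region set to the limit.

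The rise in Mob2 was carried by junction JUC0700020240.mm.1, 1 of 7 junctions. Its row read 10.15, 8.38 and 8.39 log2 in ileum knockout arrays and 7.14, 6.61 and 7.84 in ileum floxed arrays. In colon it read 2.75, 1.45 and 3.08 in knockout arrays and 1.69, 2.90 and 1.49 in floxed arrays. Every ileum array exceeded every colon array by more than 3 log2, and the colon values lie near those of negative control rows, whose medians ran from 2.46 to 2.71. The index averaged 2.91 ± 1.22 in ileum and -3.01 ± 0.76 in colon (SD, n = 6 each), a measured difference of 5.92 ± 0.40 log2 (SE) with a limma adjusted p of 5.01e-06. With colon set to the limit, the index was at least 4.48-fold higher in ileum. The gene level of Mob2 differed by -0.07 log2 (adjusted p = 0.923). Its other 6 junctions differed by -0.51 to 0.12 and its 10 exon regions by -0.30 to 0.40, with none called. These rows averaged 1.78 to 6.00 log2 in ileum and colon, near or under the background limit, so a change of the gene might not show in them. The gene level subtracted in the bound is the median of these exon regions and was itself not above the limit.

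Megf6, which encodes a protein with many EGF-like domains, and Adam33, a membrane-anchored metalloprotease, came next. Junction JUC0400008876.mm.1 of Megf6 read 10.09, 8.63 and 9.06 in ileum knockout and 8.81, 7.65 and 8.64 in ileum floxed arrays, against 4.05, 3.26 and 3.79 in colon knockout and 3.88, 4.66 and 4.47 in colon floxed arrays. Its index difference was 4.80 ± 0.32 log2 (SE; adjusted p = 5.1e-06), with a gene difference of -0.01. The other 41 junctions and 49 exon regions of Megf6 stayed uncalled, within -0.51 to 0.92 log2. Junction JUC0200020642.mm.1 of Adam33 read 9.45, 7.66 and 8.71 in ileum knockout and 8.60, 7.83 and 7.55 in ileum floxed arrays, against 3.56, 2.54 and 5.25 in colon knockout and 3.81, 4.62 and 4.73 in colon floxed arrays. Its index differed by 4.31 ± 0.45 (SE; adjusted p = 0.00026), with a gene difference of -0.09. In both genes all 6 colon values were at or under the limit and all 6 ileum values above it, and ileum was at least 7.13-fold higher for Megf6 and at least 5.31-fold higher for Adam33. By this bound Mob2 was not the largest of the 3.

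The ileum knockout array 1 gave the highest ileum value for all 3 of these junctions. The same array had the highest mean level of the Paneth cell markers, at 7.54 log2, against 4.68 to 6.00 in the other ileum arrays and 3.88 to 4.80 in colon arrays. Of 5 Paneth cell markers measured, Lyz1 was called between the regions, higher in ileum by 3.35 log2. This was not particular to Paneth cells, since for 9 of the 12 marker lists that array had the highest mean level among ileum arrays, with smooth muscle at 6.49 against 4.96 to 5.68, colonocyte at 6.05 against 4.68 to 5.20 and epithelial markers at 9.22 against 7.88 to 8.86. It also had the lowest array background, at 6.01 against 6.30 to 7.06. Their part in the result was not tested. Without ileum knockout 1, the differences were 5.62 for Mob2, 4.58 for Megf6 and 4.01 for Adam33, all still called. Within ileum, the Mob2 index was 5.02, 3.21 and 3.24 in knockout and 2.06, 1.55 and 2.38 in floxed arrays, a comparison chosen after its values were seen, with a difference of 1.82 log2 (unadjusted p = 0.00522) that was not called.

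The other rises were smaller, and except in Ablim1, with 4 of 6, all 6 of their colon values were at or under the limit. Klhl29 was at least 1.88-fold higher in ileum by the bound. For Polr2i 4 of the 6 ileum values were also at or under the limit. Its bound of 1.15-fold came with a gene level difference of -0.21 log2, so it is not read as a brighter junction in ileum. For Slc30a2, Syngr2, Mlxipl and Map3k6 no fold is given, since with colon at the limit ileum was not higher, and the Syngr2 row was at or under the limit in all 12 arrays. Slc30a2, a zinc transporter also known as ZnT2, averaged an index of 0.14 ± 0.52 in ileum and -2.65 ± 0.62 in colon (SD, n = 6 each), a measured difference of 2.79 (adjusted p = 0.000373) from a colon row of 2.81 log2. Klhl29, of the kelch-like family, averaged 1.75 ± 0.34 in ileum and -0.97 ± 0.82 in colon. Polr2i, a subunit of RNA polymerase II, rose by 2.34 over both genotypes, with 3.36 in knockout (adjusted p = 0.00413) and 1.33 in floxed mice (adjusted p = 0.508), an interaction that was not called. Syngr2, a vesicle membrane protein, averaged -1.05 ± 0.33 in ileum and -3.23 ± 0.63 in colon, where its row read 2.37 to 5.04 log2. Ablim1, an actin-binding LIM protein, had a row of 7.46 ± 0.36 log2 in ileum and 5.71 ± 0.61 in colon, with an index difference of 2.06. Mlxipl, or ChREBP, a transcription factor that responds to glucose, rose by 1.95 (adjusted p = 0.0158), and this call was lost in 5 of the 12 fits that left out 1 array, in which its difference ran from 1.72 to 2.26.

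**Figure D3:**
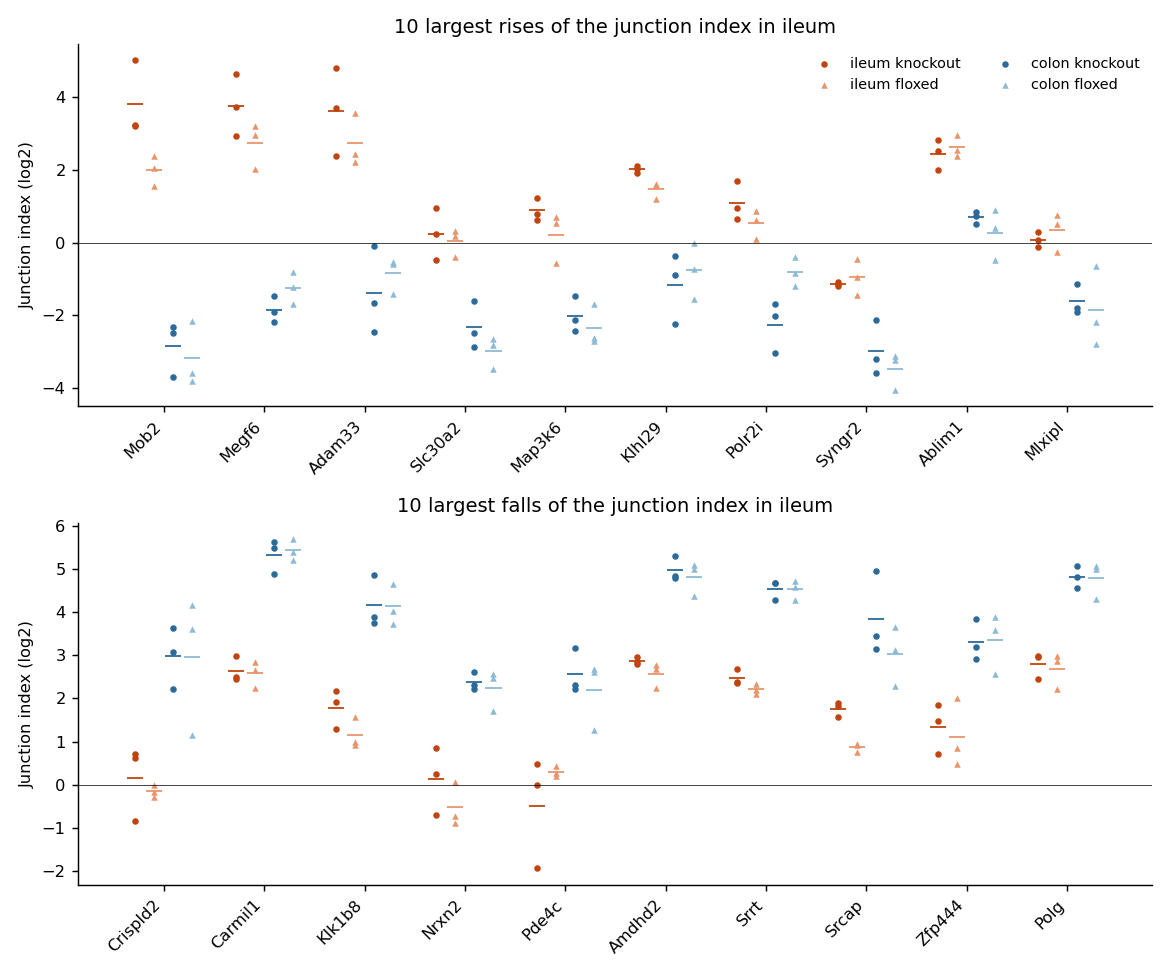
Junction index (vertical, log2) in each of the 12 arrays for the 10 largest rises (top) and the 10 largest falls (bottom), with ileum knockout, ileum floxed, colon knockout and colon floxed arrays from left to right within a gene and a bar at each mean of 3 arrays. In every gene the 6 ileum values and the 6 colon values do not overlap, as the naming rule required. The widest measured gap is that of Mob2, whose colon rows are at background, with 1.55 to 5.02 in ileum and -3.82 to -2.16 in colon.

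Among the falls, Crispld2, a secreted cysteine-rich protein, had the largest difference at -2.97 ± 0.46 log2 (SE; adjusted p = 0.00571). Its junction row JUC0800006430.mm.1 read 5.74, 5.53 and 4.15 in ileum knockout and 4.75, 5.17 and 4.99 in ileum floxed arrays, against 7.36, 7.88 and 8.78 in colon knockout and 8.76, 6.19 and 9.27 in colon floxed arrays. Colon floxed 2 lay closest to the ileum values, without overlap. The ileum values of Crispld2, Nrxn2 and Pde4c were at or under the limit, and ileum was at least 3.98-fold, 3.17-fold and 2.85-fold lower by the bound. Junction JUC1300005277.mm.1 of Carmil1, a regulator of actin filament capping, fell by 2.77 log2 (limma adjusted p = 6.27e-05). Its index was 2.61 ± 0.27 in ileum and 5.38 ± 0.30 in colon (SD, n = 6 each). Klk1b8, a tissue kallikrein, differed by -2.67 (adjusted p = 0.000292) and was the 1 gene of the 20 with a called exon region, among differences of -2.84 to 0.19 over 5 exon regions. The mouse kallikreins are a cluster of near-identical genes that can share probes, so this gene is uncertain.

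The remaining falls came from genes of varied roles. Nrxn2, a synaptic adhesion protein whose gene is known for many splice forms, averaged an index of -0.19 ± 0.69 in ileum and 2.32 ± 0.34 in colon (SD, n = 6 each), and its 36 other junctions stayed within -0.90 to 0.82 log2. Pde4c, a cyclic AMP phosphodiesterase, averaged -0.09 ± 0.92 in ileum and 2.38 ± 0.64 in colon. Srcap, a chromatin remodelling ATPase, averaged 1.32 ± 0.49 in ileum and 3.43 ± 0.88 in colon. Zfp444, a zinc finger protein, averaged 1.23 ± 0.63 in ileum and 3.33 ± 0.54 in colon. Amdhd2, an enzyme of amino sugar recycling, averaged 2.71 ± 0.25 in ileum and 4.89 ± 0.32 in colon. Srrt, or ARS2, a partner of the nuclear cap-binding complex, averaged 2.35 ± 0.20 in ileum and 4.53 ± 0.21 in colon. Polg, the mitochondrial DNA polymerase, averaged 2.74 ± 0.33 in ileum and 4.80 ± 0.31 in colon. The rows of Amdhd2, Srrt, Polg and Carmil1 and the falling row of Map3k6 described below ran nearly in parallel over the 12 arrays, with an SD of 0.126 to 0.263 log2 for the difference between any pair, and whether they share probe sequence was not tested.

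Reciprocal genes, with a called higher and a called lower junction, have junctions that moved in opposite directions. Of the 207 genes 40 had both, but only 3 did so within the limits on gene level, brightness and overlap: Map3k6, Carmil1 and St3gal1. In Map3k6, a kinase that activates stress kinases, junctions JUC0400006626.mm.1 and JUC0400006616.mm.1 rose by 2.73 and 2.31 log2, and JUC0400006609.mm.1 fell by 2.54 (adjusted p = 0.000373, 0.00313 and 0.000141, with a gene difference of 0.33). Both rising rows were at or under the background limit in all 6 colon arrays, the second also in all 6 ileum arrays and the first in 2, so their rises are no exact sizes. The first row read 6.59, 6.26 and 6.25 in ileum knockout and 6.10, 5.11 and 6.28 in ileum floxed arrays, against 2.69, 2.90 and 3.81 in colon knockout and 2.48, 3.71 and 2.64 in colon floxed arrays. The falling row read 8.30, 8.25 and 8.47 in ileum knockout and 8.55, 7.77 and 8.01 in ileum floxed arrays, against 10.20, 10.75 and 10.53 in colon knockout and 10.52, 10.47 and 10.12 in colon floxed arrays. Of the 28 junctions of Map3k6 the other 25, and all 35 exon regions, were not called.

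St3gal1, which adds sialic acid to O-linked sugars, was the 1 gene of the 3 with both rows above the background limit in all 12 arrays. Junction JUC1500007050.mm.1 read 10.67, 10.997 and 10.29 in ileum knockout and 10.78, 10.36 and 10.92 in ileum floxed arrays, against 8.70, 8.42 and 8.75 in colon knockout and 8.68, 8.20 and 8.55 in colon floxed arrays. Junction JUC1500007054.mm.1 read 9.48, 9.69 and 9.49 in ileum knockout and 9.38, 9.21 and 9.11 in ileum floxed arrays, against 11.23, 11.36 and 11.32 in colon knockout and 11.42, 11.28 and 11.02 in colon floxed arrays. The index thus differed by 1.97 ± 0.22 and by -2.03 ± 0.23 log2 (SE; limma adjusted p = 0.000373 for each), in a gene that differed by 0.15. Both junctions were called within knockout and within floxed mice, the first with adjusted p of 0.0452 and 0.0117 and the second with 0.0172 and 0.0243. The 8 other junctions and 16 exon regions were not called. Apart from the brightest exon region, the exon regions averaged at most 6.14 log2 in either region, near or under the background limit. The gene difference, taken from the median of the exon regions, was thus read near background. Both rows were brighter than every exon region of the gene, of which the brightest averaged 6.82 log2 in ileum and 6.85 in colon. On average the falling rows of Carmil1 and Map3k6 also exceeded every exon region of their gene in both regions. The Mob2 row did so in ileum. The cause was not tested. In Carmil1 the second junction, JUC1300005257.mm.1, rose by 1.52 (adjusted p = 0.0476) from a colon row at or under the limit in all 6 arrays, and lost its call in 11 of the 12 fits that left out 1 array, which gave 1.38 to 1.79.

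**Figure D4:**
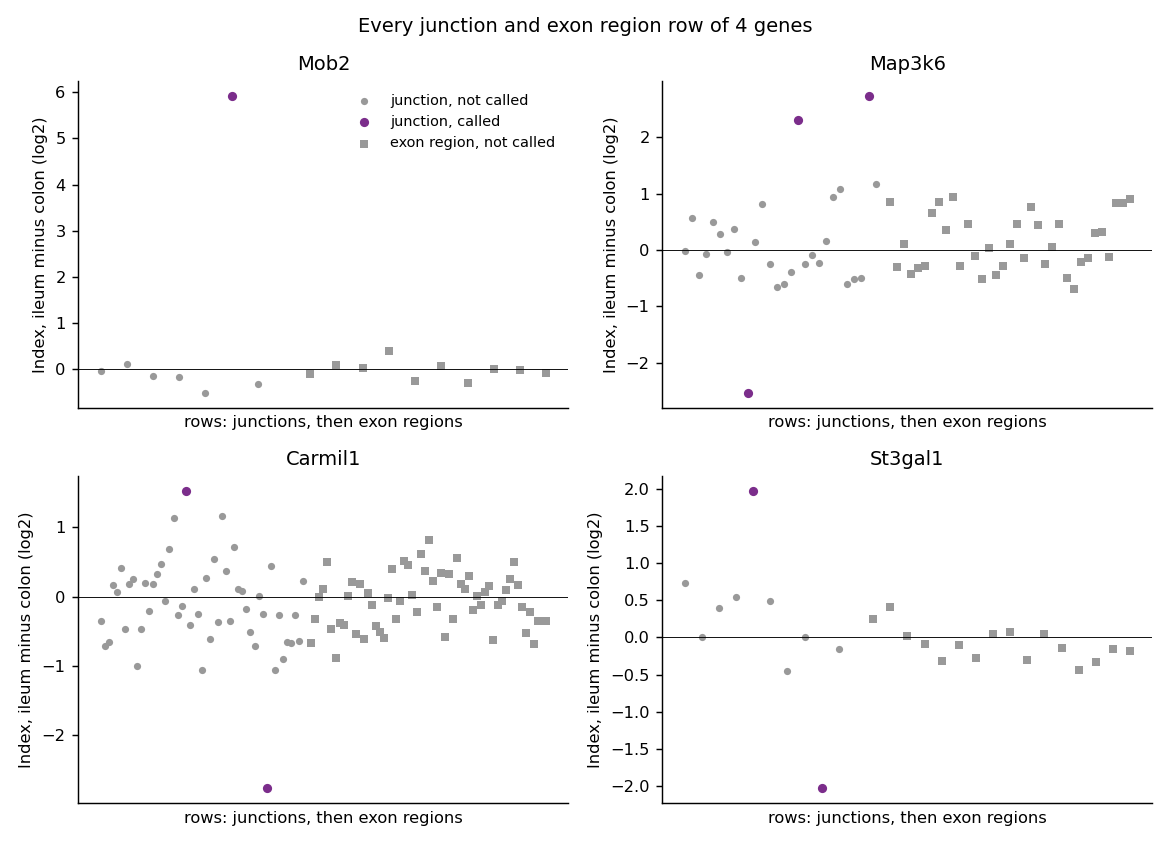
Index difference (vertical, log2, ileum minus colon) of every junction and then every exon region of Mob2, Map3k6, Carmil1 and St3gal1, ordered by row ID along the horizontal axis, which is not stated to be the order along the gene. In Mob2 1 junction stands at 5.92 while the other 6 lie between -0.51 and 0.12, and in Map3k6 and St3gal1 a few junctions stand apart in opposite directions. In Carmil1 only the fall, at -2.77, stands apart, and the called rise at 1.52 lies next to uncalled junctions at 1.16 and 1.13.

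The regional differences were also tested within each genotype. Within knockout mice 130 member junctions were called between ileum and colon, and within floxed mice 117, where 0.124% and 0.103% of all junctions fitted were called. The 69 called in both are 53.1% of the first set and 59% of the second. The arrays of the genotypes are separate, and of the 130 called in knockout mice all 130 had the same sign in floxed mice, while of the 117 called in floxed mice 115 had the same sign in knockout mice. With a gene difference of at most 0.5 log2 only 18 and 24 calls were left. In the other genes a row at background takes the sign opposite to its gene, so a shared sign there can repeat a shared gene difference. Leaving out any 1 of the 6 knockout arrays gave 41 to 65 calls in knockout mice, and leaving out any 1 of the 6 floxed arrays gave 24 to 65 in floxed mice.

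Exon regions of the same genes were tested as a second kind of row. Of 75408 exon regions of member genes 467 were called, or 0.619%, with 182 higher and 285 lower in ileum, the same total as for junctions with another split by direction. Over all 331220 exon regions fitted the share was 0.262%. In genes within 0.5 log2, 43 of 66941 exon regions were called, or 0.0642%, and in the others 424 of 8467, or 5.01%. Of the 64 genes with a called junction within the limits, 5 had a called exon region. Gene levels, for comparison, were called for 628 of 31265 genes, or 2.01%.

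The genes that regulate splicing were examined at gene level and by junction. Of 56 splicing regulators none was called at gene level between ileum and colon, where the share over all genes was 2.01%. With so few genes a count of 0 is near that share. Few of the 56 averaged above the background limit, so most of them could hardly have shown a change. The smallest p belonged to Esrp1, an epithelial splicing regulator, at 5.18 ± 0.35 log2 in ileum and 5.71 ± 0.37 in colon (SD, n = 6 each), a difference of -0.53 with a limma adjusted p of 0.17. Of the 56, 23 were member genes, with 368 junctions of which none was called, where the share over all junctions fitted was 0.43%, and a median index difference of -0.03 log2, against 0.01 over all members. The 3 junctions of smallest p in the list were in U2af1, a subunit of the factor that reads the 3′ splice site, at 1.24 log2 (adjusted p = 0.0802), in Hnrnpa2b1, an RNA-binding protein, at 1.41 (adjusted p = 0.166) and in Esrp1 at 0.98 (adjusted p = 0.188). The U2af1 row was at or under the background limit in all 12 arrays, and the Hnrnpa2b1 row in 5 colon and 2 ileum arrays. A count of 0 among so few junctions is near the general share.

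Genes with exons known to differ between epithelium and mesenchyme had 371 member junctions in 13 genes, and 1 of them was called, or 0.27%, near the 0.43% over all junctions fitted. It was junction JUC0700013328.mm.1 of Lsr, a tricellular junction protein, with an index of 0.51 ± 0.20 in ileum and -1.33 ± 0.75 in colon (SD, n = 6 each), a difference of 1.84 (limma adjusted p = 0.0167), with all 6 colon values at or under the limit and ileum at least 1.65-fold higher by the bound. The Lsr gene level was higher in ileum by 0.66 log2 (adjusted p = 0.00473), and the call was lost in 3 of the 12 fits without 1 array, which gave 1.53 to 2.09. A second Lsr junction differed by 1.68 (adjusted p = 0.0584), and a junction of Cttn, an actin regulator, by -1.27 (adjusted p = 0.0547). The row of the second Lsr junction was at or under the limit in all ileum and all colon arrays. The median of the list was -0.01 log2.

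Genes with exons known to differ in smooth muscle had 377 member junctions in 14 genes and none was called, which is also near the general 0.43%, with a median of 0.02 log2. The junctions of smallest p were in Flna, which crosslinks actin, at -1.26 (adjusted p = 0.0921), in Ppp1r12a, the targeting subunit of myosin phosphatase, at -1.05 (adjusted p = 0.152) and in Mprip, its partner, at 1.04 (adjusted p = 0.206). The Mprip row was at or under the background limit in all colon arrays and 5 ileum arrays. Genes with known alternative promoters or isoforms in gut and liver had 161 member junctions in 15 genes, none called against the same 0.43%, with a median of 0.02. Their smallest p belonged to the nuclear receptors Rxra at -1.15 (adjusted p = 0.297) and Rarg at -0.98 (adjusted p = 0.3), and to Foxa2, a transcription factor, at 0.75 (adjusted p = 0.32). The Rxra row was at or under the background limit in all ileum and all colon arrays. The Rarg row was so in all ileum arrays and 5 colon arrays.

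No junction passed the test between genotypes. In colon, knockout against floxed gave 0 called of 54779 member junctions, with a smallest limma adjusted p of 0.953, and 2984 at an unadjusted p under 0.05 where 2739 would fall by that threshold alone. In ileum it gave 0 called, with a smallest adjusted p of 0.759 and 3886 under 0.05. The interaction of genotype and region gave 0 called, with a smallest adjusted p of 1.00 and 1877 under 0.05. The percent called over all junctions fitted was 0 in all 3. A trend on brightness in the variance prior, or a replicate block, also gave 0 in each.

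The junctions of smallest p between genotypes, in colon, in ileum and for the interaction, are given as values only. The background limit was not applied to them, so some of their rows may lie at background. In colon, a junction of Gstm1, a glutathione transferase, had an index of -1.57, -1.62 and -1.23 in knockout and -3.06, -3.47 and -3.71 in floxed arrays (unadjusted p = 3.32e-05). The other higher ones were in Cox7a2, a subunit of cytochrome oxidase, at 1.86 log2, in Ap2a2, a clathrin adaptor, at 1.63, in AA467197 at 2.85 and in Tbc1d13 at 1.70. The lower ones were in Anxa6, a membrane-binding annexin, at -1.77, in Cracd at -1.67, in Rasal1 at -1.38, in Zbtb17 at -1.62 and in Col2a1, a cartilage collagen, at -1.65. All 10 had non-overlapping arrays, as had 11.1% of all members in this comparison.

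In ileum the higher junctions of smallest p were in Mapkapk2, a stress-activated kinase, at 2.07 log2 (unadjusted p = 0.00019), in Mrps15, a mitochondrial ribosomal protein, at 2.50, in Ager at 1.55, in Numa1, which organises the spindle, at 2.56 and in Tmem59 at 1.97. The lower ones were in Epb41l1 at -1.60, in Wwtr1, or TAZ, a coactivator of the Hippo pathway, at -1.64, in Stat2, which carries interferon signals, at -2.63, in Add1 at -1.52 and in Stat5a at -1.31. The Mapkapk2 index was -1.11, -1.19 and -0.32 in knockout and -3.16, -3.53 and -2.14 in floxed arrays, and the Stat2 index -3.76, -2.97 and -1.58 in knockout and -0.81, 0.68 and -0.30 in floxed arrays. All 10 had non-overlapping arrays, as had 13.3% of members. For the interaction, the smallest p among higher differences belonged to Cracd at 2.25 log2, Ano7 at 2.11, Nos2 at 1.83, Vps13d at 1.81 and Lmbrd1 at 2.00, and among lower ones to Cdh22 at -2.03, Tax1bp1 at -2.10, Vdac1 at -2.0, Wwtr1 at -1.89 and Pdgfrb at -1.65.

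Ppard, the targeted gene, encodes the nuclear receptor PPARβ/δ and had 9 junctions. Its gene level was higher in knockout by 0.21 log2 in colon and by 0.32 in ileum, not called. The index differences ran from -1.35 to 0.13 in colon and from -0.95 to 0.79 in ileum. The lowest in both tissues was junction JUC1700002235.mm.1, whose row read 2.46, 2.80 and 2.46 in knockout and 3.24, 3.35 and 4.54 in floxed colon, and 2.93, 3.13 and 3.13 in knockout and 4.33, 2.64 and 4.11 in floxed ileum. The row values overlapped in ileum and not in colon. The knockout values lie near the negative control medians and the floxed values reach higher, but all 12 are under the background limit. The index differed by -1.35 in colon (95% interval -2.32 to -0.38, adjusted p = 0.953) and by -0.95 in ileum (-1.92 to 0.02, adjusted p = 0.766). The brightest junction, JUC1700002234.mm.1, read 8.56, 7.92 and 7.63 in knockout and 8.16, 7.34 and 7.95 in floxed colon, an index difference of 0.01 (-0.73 to 0.75). The labels do not say which exons the deletion removes, so no single junction can be named as its check.

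**Figure D5:**
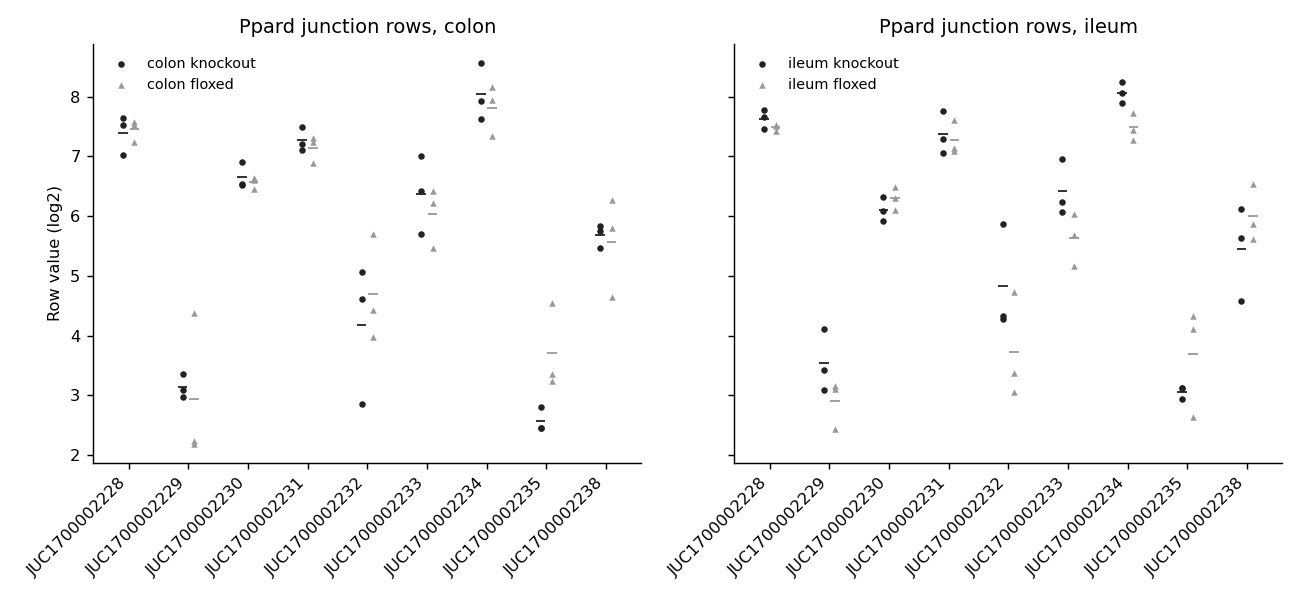
Row values (vertical, log2) of the 9 Ppard junctions in colon (left) and ileum (right), with knockout arrays left of floxed arrays for each junction and a bar at the mean of 3 arrays. Only JUC1700002235 in colon has knockout values, at 2.46 to 2.80, that all lie below the floxed values, at 3.24 to 4.54.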

How the data were processed

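RNA of 12 mucosa samples was labelled with biotin after a kit for picogram amounts, per the labels' protocols, and measured on 1-colour arrays. The values the authors deposited are on a log2 scale. RMA and Partek are named, without versions, per the submitters' processing notes. No genome build is given for the junctions in the sources used here, so no coordinates of them are printed. Symbols came from the platform annotation, updated through a table of current mouse names.

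The junction index, the log2 row minus the median of the exon regions of its gene in the same array, was computed from the deposited log2 values without further normalization. Means of 4 groups were fitted to all 241324 junctions with limma 3.58.1 in R 4.3.3 (lmFit, eBayes), two-sided, with Benjamini-Hochberg adjustment over all of them and a call at 0.05. The exon region index was planned for all exon regions with 1 symbol, and was fitted only for genes with at least 2, since it is 0 for a gene with 1. The fits were tested on simulated data. Array background is the mean of the background control rows whose probes hold at least 15 G or C bases. No detection call was used. The background limit is the 95th percentile of the negative control rows of an array, chosen after the values were seen, and bounds replace lower values of the dimmer region with it without a new test. In addition, the number of arrays limits precision.

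Junctions were named by a rule: the 10 largest rises and 10 largest falls among called junctions with non-overlapping arrays, a gene difference of at most 0.5 log2 and a row of at least 5 log2 in the brighter region, then reciprocal genes, up to 3 of smallest p in each list, 5 of smallest p in each direction between genotypes, and all of Ppard between genotypes. Genes with the most called junctions were chosen after their values were seen. The members and lists were chosen with earlier results of these data known. The alternatives changed the gene level subtracted, the normalization, the limits on level and brightness, a background covariate, a replicate block, the variance prior and the arrays included.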

Additional observations from a re-analysis of the deposited data

Results flagged for a closer look

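Among the 37 junctions named for ileum against colon, each region's 6 arrays were checked for a single array far from the rest. Of 74 such groups 4 had one, where the limit used has a nominal rate of 1 in 20. The junctions were chosen by their values and some ran in parallel, so this rate is not the one to expect for them. In Pde4c the ileum knockout 2 index was -1.93, while the other ileum arrays lay between 0.00 and 0.49. In Ablim1 the colon floxed 2 index was -0.48, and the other colon arrays lay between 0.41 and 0.90. In Amdhd2 the ileum floxed 2 index was 2.24, and the other ileum arrays lay between 2.68 and 2.95. In Foxa2 the ileum knockout 3 index was 2.59, and the other ileum arrays lay between 3.07 and 3.31. Without the array in question the differences of Pde4c, Ablim1 and Amdhd2 between ileum and colon were still called.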

How the results depend on the processing

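Calls between ileum and colon followed the limit on gene level. With a gene level of at least 6 log2, 143 junctions were called, 43 in knockout and 35 in floxed mice, and 142 exon regions; with no limit on the gene level the counts were 1005, 280, 234 and 831; with a gene difference of at most 0.5 log2 they were 84, 18, 24 and 43. These limits change how many rows can be counted. Subtracting the mean of the exon regions gave 791 called exon regions, and array background as a covariate gave 57 junctions in knockout mice and 1218 genes; the cause was not tested. The other alternatives gave counts within 1.5 times of those reported, except the replicate block. All 3 comparisons with genotype kept 0 calls throughout.

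Leaving out 1 array gave 317 to 433 called junctions, 41 to 136 in knockout and 24 to 101 in floxed mice, 288 to 472 exon regions, 447 to 676 genes, and 0 to 0 for each genotype comparison and the interaction. Exon regions fell furthest without colon knockout 2, at 288, ileum floxed 1, at 295, and ileum floxed 3, at 303. All 467 junctions kept their sign, and 19 or 20 of the 20 named rises and falls stayed called. Dropping an array leaves a group of 2, which lowers the power.

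With the replicate number as a block, 375 junctions were called, 66 in knockout and 47 in floxed mice, 391 exon regions and 867 genes, and 0 for the genotype comparisons and the interaction. Correlations of deviations between samples of the same number ran from -0.11 to 0.33, and not every sample correlated best with its own number, so the samples share only a number.

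The bounds with the dimmer region at the background limit are not among the alternatives. With them several named rises changed sign, among them those of Slc30a2, Map3k6, Syngr2 and Mlxipl. Under the alternatives only Ppard junctions, none called, changed sign. These Ppard junctions are given here by the last 4 digits of their ID. In colon 2229, at -0.00, became 0.045 with the mean subtracted, 0.062 with junctions in the median, 0.081 after quantile normalization and 0.75 with background as a covariate. That covariate gave 0.062, 0.17, 0.12 and 0.33 for 2228, 2230, 2231 and 2238 in colon, 0.42, 0.014, 0.15 and -0.033 for 2228, 2230, 2231 and 2232 in ileum, and 0.032 for the interaction of 2231. The interaction of 2228 became -0.040 with junctions in the median. Leaving out 1 array gave -0.57 to 0.018 for 2228, -0.44 to 0.81 for 2229, -0.30 to 0.089 for 2230, -0.25 to 0.079 for 2231, -0.24 to 0.31 for 2233, -0.23 to 0.16 for 2234 and -0.64 to 0.25 for 2238 in colon. In ileum it gave -0.39 to 0.026 for 2228 and -0.050 to 0.63 for 2229. For the interaction it gave -0.19 to 0.40 for 2228, -0.49 to 0.75 for 2229, -0.42 to 0.041 for 2231 and -0.11 to 0.72 for 2235.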

Other observations

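Several of the falling junctions had nearly the same values in every array, a likeness seen after the values were known. The rows of Carmil1, Amdhd2, Srrt and Polg and the falling row of Map3k6 belong to genes of different function. In ileum knockout 1, 2 and 3 the 5 rows lay between 7.89 and 8.43, 7.64 and 8.52, and 7.89 and 8.52 log2, and in ileum floxed 1, 2 and 3 between 8.0 and 8.57, 7.36 and 7.97, and 7.62 and 8.43. In colon knockout 1, 2 and 3 they lay between 9.66 and 10.20, 10.15 and 10.75, and 9.90 and 10.53, and in colon floxed 1, 2 and 3 between 10.12 and 10.52, 10.08 and 10.47, and 9.50 and 10.12. The SD over the 12 arrays of the difference between a pair of these rows was 0.126 to 0.263 log2 over the 10 pairs, with a median of 0.165. Over the 1128 pairs among all 48 falling rows within the limits the median was 0.50, and the lowest 0.0993. Their probe sequences were not used here.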
